A study of Mus musculus with 12 samples.

Results

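Metalloproteinases and their tissue inhibitors were followed in RNA-seq of mouse whole liver and of liver sinusoidal endothelial cells (LSEC, the fenestrated cells that line the liver's capillaries). Genes were taken by symbol into 4 families: matrix metalloproteinases (Mmp), tissue inhibitors of metalloproteinases (Timp), membrane proteases with a disintegrin domain (Adam) and their secreted relatives with thrombospondin repeats (Adamts). The rule found 57 genes of the 17186 symbols that the liver and LSEC tables hold together. The liver table held 56 of its 16703 genes (17 Mmp, 4 Timp, 19 Adam and 16 Adamts) and 53 of the 16273 genes measured in LSEC were members (17, 4, 16 and 16). The 52 genes in both tables could be compared between the tissues; Adam2, Adam7, Adam24 and Mmp24 were listed for liver only and Mmp16 for LSEC only.

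All libraries came from C57BL/6 mice, without a genetic change or an added agent in the labels, and each of the 4 groups had 3 libraries: chow liver, nonalcoholic steatohepatitis (NASH) liver, chow LSEC and NASH LSEC. NASH was induced by a diet, given for 36 weeks per a protocol that the labels attach to every sample, the chow samples included. Age and sex were not given in the sources used here. LSEC were collected, per the labels, from non-parenchymal liver cells by a first bead step that removed cells with CD11b, a surface protein of myeloid cells, and a further bead step that kept cells with CD146, a surface protein of endothelium that some other cells also carry. The comparison of NASH with chow in each tissue asks which genes differ between healthy and diseased liver. The labels do not say that the 3 libraries of a group came from separate animals, and the spread behind each p-value is that between libraries, which may be technical.

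Metalloproteinases are zinc enzymes that are made as inactive precursors and cut matrix proteins or proteins on the cell surface. TIMPs bind the active site of the mature enzymes and block it, so that the amount of active enzyme depends on the level of protease, its activation and the inhibitors at hand. In the liver both proteases and inhibitors come from stellate cells, macrophages, endothelium and bile duct cells, and they are known for the build-up and the removal of scar matrix.

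Liver libraries held 47000197 to 57397720 reads in genes, and LSEC libraries 18527017 to 19402863. Markers of sinusoidal endothelium were abundant in every LSEC library: the 8 markers summed to 523187 to 554827 normalized reads with chow and 273516 to 288230 with NASH. Other cell types were read there too. The summed 8 hepatocyte markers, albumin among them, ranged from 6689 to 80270 over the 6 LSEC libraries, with overlapping groups. Markers of macrophages, stellate cells and cholangiocytes are given below beside the genes they moved with. In a bulk sample, fewer cells of a type and less RNA per cell cannot be told apart.

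In NASH liver most of these genes were higher. Of the 56 measured, 32 (57.1%) rose, 2 fell and 22 did not pass the test (limma with Benjamini-Hochberg adjustment over all 16703 genes, adjusted p under 0.05), against a background of 25.0% of all liver genes called higher and 21.0% called lower, 46.0% in all. Markers of hepatocytes moved the other way, 5 of 8 lower, with sums of 6070575 to 6627907 with chow and 3018736 to 3437520 with NASH, and their part in the members' rises was not tested. The members' median log2 fold change was 1.30, where that of all liver genes was 0.024. The 47 genes that averaged 10 or more normalized reads held 30 of the rises and both falls. Of the 9 with fewer, Mmp24 and Adam5 were called. By family, 12 of 17 Mmp genes rose and none fell, 2 of 4 Timp genes rose and none fell, 9 of 19 Adam genes rose and 1 fell, and 9 of 16 Adamts genes rose and 1 fell. Leaving out each liver library in turn, 31 of the 34 calls held every time. The calls of Adam33, Adam5 and Adamts1 were lost at least once: that of Adamts1 without NASH library 1, those of Adam33 and Adam5 without chow library 1, chow library 2 or NASH library 3, and that of Adam33 also without NASH library 1. With libraries scaled to equal totals of reads, a step that raised the median log2 fold change of all liver genes by 0.402, 40 members rose and none fell, while of all liver genes 7878 were called higher and 904 lower, against 4179 and 3512 without it.

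In LSEC, 15 of 53 members (28.3%) rose and none fell, against 5.24% of all LSEC genes called higher, 2.86% called lower and 8.11% called in all. The tool edgeR called none lower and DESeq2 called 1, and 3 members had a negative change with an unadjusted p under 0.05 (Adam12, Adam23 and Timp3). The median log2 fold change of the members was 0.77, against 0.0 over all LSEC genes. Scaling to equal totals raised that of all genes by 0.135, gave 16 members higher and none lower, and called 1164 LSEC genes higher and 273 lower, against 853 and 466 without it. Those that rose were 7 of 17 Mmp, 1 of 4 Timp, 1 of 16 Adam and 6 of 16 Adamts genes. In both tissues 14 genes rose, 43.8% of those that rose in liver and 93.3% of those that rose in LSEC: Mmp7, Mmp12, Mmp13, Mmp15, Mmp23, Mmp27, Timp1, Adam8, Adamts2, Adamts4, Adamts5, Adamts9, Adamts15 and Adamts16. The remaining LSEC gene was Mmp19. The same overlap was not counted over all genes, of which 25.0% were called higher in liver and 5.24% in LSEC. Many LSEC calls were lost with 1 library fewer, where all genes called fell to between 124 and 1171. Without NASH library 2 or NASH library 3, 4 members were called, without chow library 3, 5, without chow library 2 or NASH library 1, 8, and without chow library 1, 10. Mmp12, Mmp13, Timp1 and Adamts9 were called in each of these 6 fits and the other 11 were lost in at least 1. Mmp23 and Adamts15 were lost in all 6, at log2 fold changes of 1.54 to 2.03 and 1.47 to 2.02.

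**Figure D1:**
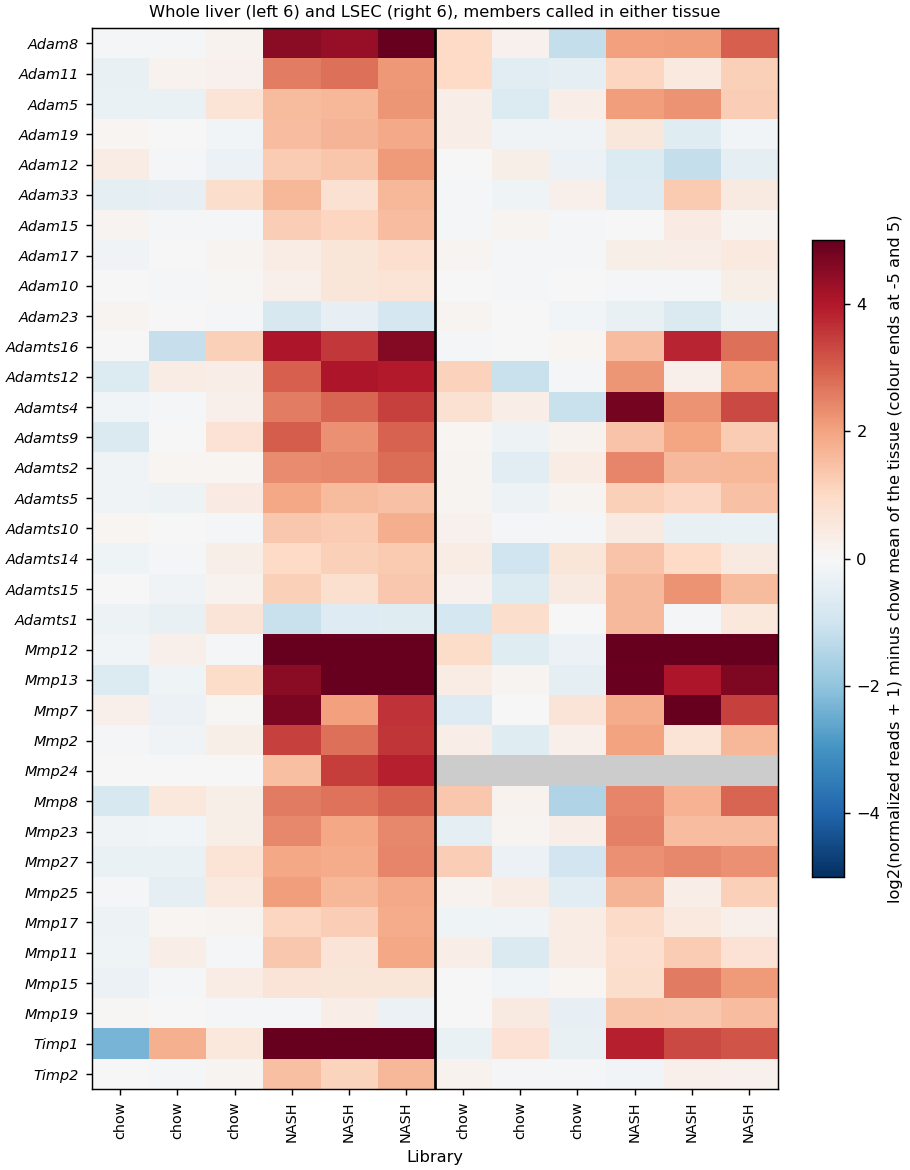
Heat map of the 35 members called in liver or LSEC, with 1 row per gene and 1 column per library. Colour gives log2(normalized reads + 1) minus the mean of the 3 chow libraries of the same tissue, and ends at -5 and 5; Mmp24, grey on the right, was listed for liver only. The NASH columns of liver are red for most of the genes, while in LSEC the rows of Mmp7, Mmp15, Adamts4 and Adamts16 differ in depth of colour between the NASH libraries.

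Of the measured MMP genes, 6 lie in 1 stretch of chromosome 9 in mm10, all on the forward strand, between 7272514 and 7699585 (427 kb): Mmp13, Mmp12, Mmp3, Mmp8, Mmp27 and Mmp7. Other genes of this stretch were not analysed here. In liver 5 of the 6 rose, against 12 of all 17 Mmp genes and 25.0% of all genes. In LSEC 4 of the 6 did, against 7 of 17 Mmp genes and 5.24% of all genes. Because several members of this cluster, though not all, rose in both tissues, sequences around gene starts were read from RefSeq promoter windows (GRCm38.p6, the same build as mm10). The windows reach from 250 bases before to 50 bases after a start. Of the 57 members 34 had a window, 39 windows in all. The AP-1 motif TGANTCA, searched on both strands, was found in 5 of the 39 (12.82%), against 7.81% of all 32851 windows. The box TATAAA was found in 5 (12.82%), against 8.32%. Both motifs were in 4 of the 39 windows (10.26%), against 1.0% of all, and these 4 belonged to Mmp13, Mmp12, Mmp3 and Mmp7. These 4 genes are neighbours of 1 family, so their windows cannot be counted as independent. In the window of Mmp12 the TATAAA lies after the listed start and not before it. The first base of TATAAA lies 16 bases before the listed start for Mmp13, 7 for Mmp3, and 123 and 26 for Mmp7. Printed here are 130 bases before to 30 bases after the start for each, with AP-1 and TATAAA matches in capitals. The stretches are chr9:7272384-7272543 for Mmp13, chr9:7347244-7347403 for the second of 2 starts of Mmp12, chr9:7445692-7445851 for Mmp3 and chr9:7691960-7692119 for Mmp7, all on the forward strand.
Mmp13: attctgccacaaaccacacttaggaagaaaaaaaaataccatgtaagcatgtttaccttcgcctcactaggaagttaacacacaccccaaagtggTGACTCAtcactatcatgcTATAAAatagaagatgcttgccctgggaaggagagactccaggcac
Mmp12: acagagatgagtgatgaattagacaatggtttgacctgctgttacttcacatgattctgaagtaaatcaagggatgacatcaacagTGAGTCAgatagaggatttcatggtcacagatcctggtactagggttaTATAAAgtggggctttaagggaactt
Mmp3: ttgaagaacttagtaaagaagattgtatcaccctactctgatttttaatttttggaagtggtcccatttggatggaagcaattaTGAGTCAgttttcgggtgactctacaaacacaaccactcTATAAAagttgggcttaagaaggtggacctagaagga
Mmp7: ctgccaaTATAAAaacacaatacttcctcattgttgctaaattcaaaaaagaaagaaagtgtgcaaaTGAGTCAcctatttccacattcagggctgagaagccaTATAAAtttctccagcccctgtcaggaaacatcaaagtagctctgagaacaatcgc
The windows of Mmp8 and Mmp27 and the other windows of Mmp12 and Mmp7 held neither. Mmp3, whose window held both motifs, was not called in either tissue, while Mmp27, whose window held neither, rose in both. A match is a stretch of letters, and binding was not measured.

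Mmp12, the macrophage metalloelastase that cuts elastin, had the largest fold change of the MMP genes in each tissue. It lies at 7344381 to 7369499 within the cluster. In liver it had 78.3, 103 and 81.0 normalized reads with chow and 3479, 3564 and 5814 with NASH, a log2 fold change of 5.57 ± 0.20 (SE; limma, adjusted p = 2.05e-07). Every NASH liver stood far above every chow liver. Of the 8 markers of recruited macrophages all rose in liver too, with sums of 4609 to 6165 with chow and 36634 to 64084 with NASH. In LSEC it had 66.9, 22.8 and 28.7 with chow and 3618, 2509.8 and 4348 with NASH, a log2 fold change of 6.55 ± 0.40 (adjusted p = 0.00237, limma), again with no overlap. Gpnmb and Trem2, markers of lipid-associated macrophages, moved with it in the LSEC libraries, at log2 fold changes of 6.31 and 3.71 (limma, adjusted p = 0.00263 and 0.0138). The cell preparation included a step against CD11b. Of the 8 markers 5 rose in LSEC, and their summed level was 8666 to 12164 with chow and 20133 to 54500 with NASH. Much of that sum was Spp1, a gene that bile duct cells also express and that did not pass in LSEC (limma, adjusted p = 0.0898); without it the sums were 3656 to 5036 with chow and 10741 to 13217 with NASH. Of 8 markers of Kupffer cells, the resident macrophages, 3 rose and 1 fell in LSEC, with sums of 8716 to 25083 with chow and 36276 to 48618 with NASH. In liver 3 of these markers rose and 3 fell, with overlapping sums of 29474 to 42168 with chow and 41359 to 61504 with NASH. The part of such cells in the levels of Mmp12 was not tested.

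Mmp13, the main interstitial collagenase of rodents, opens the triple helix of fibrillar collagen. Its liver level was 5.93, 8.63 and 20.5 normalized reads with chow and 259.8, 476 and 553 with NASH (log2 fold change 5.18 ± 0.43, limma, adjusted p = 2.38e-05). In LSEC it was 28.2, 23.9 and 15.4 with chow and 699.5, 372 and 574 with NASH (log2 fold change 4.54 ± 0.33, limma, adjusted p = 0.00261). The groups were separate in both tissues, and the call held with each library left out. The other measured collagenase gene was Mmp8, known from neutrophils. It went from 2.37, 7.55 and 6.15 to 34.9, 38.2 and 44.2 in liver (log2 fold change 2.76 ± 0.42, limma, adjusted p = 0.000641). In LSEC it had 6.27, 2.18 and 0 and 14.5, 8.40 and 20.4 (limma, adjusted p = 0.107), which did not pass at these few reads. Markers of neutrophils rose in liver for 7 of 7 measured, with sums of 346 to 363 for chow and 1020 to 1286 for NASH, and in LSEC for none of 7, with overlapping sums of 61.4 to 272. Their part in the Mmp8 values was not tested.

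Mmp7, matrilysin, is a small MMP without the hemopexin domain and is known from epithelia such as bile ducts. Its liver level was 28.5, 19.4 and 24.6 with chow and 643, 103 and 300.0 with NASH (log2 fold change 3.45 ± 0.54, limma, adjusted p = 0.000716). NASH library 1 was the highest and NASH library 2 the lowest of the diseased livers, and all were above chow. In LSEC its level was 3.13, 5.44 and 9.21 with chow and 22.2, 250.1 and 68.8 with NASH (log2 fold change 3.52 ± 0.84, limma, adjusted p = 0.0489, and 0.0417 to 0.149 with a library left out). The call was lost without any chow library, without NASH library 2 and without NASH library 3. NASH library 2, the highest for Mmp7, also had the highest sum of the 8 cholangiocyte markers, 48726 normalized reads, against 10751 and 18222 in the other NASH libraries and 4338 to 9736 with chow. Without Spp1, which made up most of these sums, it was again the highest, at 6297 against 1359 and 2819 in the other NASH libraries and 708 to 1228 with chow. All 8 of these markers rose in liver, where their sums were 2315 to 2996 for chow and 18317 to 35977 for NASH. Liver NASH library 2, the lowest NASH liver for Mmp7, had the lowest of these NASH sums. NASH library 3 had the highest, at 35977, while NASH library 1, the highest for Mmp7, had 31355. Without Spp1 the liver sums were 595 to 645 with chow and 3087, 1311 and 2711 in NASH libraries 1 to 3. What cholangiocytes add to the Mmp7 values was not tested. AV064505, an antisense gene, overlaps 11.5% of the exon bases of Mmp7.

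Mmp27, a less studied member of the cluster, rose in liver from 39.2, 38.8 and 79.0 to 194, 183 and 276 (log2 fold change 2.09 ± 0.30, limma, adjusted p = 0.000472). In LSEC it rose from 74.2, 25.0 and 15.4 to 152, 165 and 154 (log2 fold change 2.31 ± 0.53, limma, adjusted p = 0.0438). The LSEC groups did not overlap, but chow library 1 lay well above the other chow libraries, and the adjusted p was 0.00917 to 0.141 with a library left out, passing only without that one; edgeR gave 0.0668. Mmp3, stromelysin-1, which cuts proteoglycans and activates other pro-enzymes, had few reads: 33.2, 17.3 and 1.03 normalized reads in chow liver and 3.67, 4.02 and 6.43 in NASH liver (limma, adjusted p = 0.41), 1.04, 5.44 and 7.17 in chow LSEC and 2.90, 7.46 and 6.51 in NASH LSEC (limma, adjusted p = 0.742). The groups overlapped in both tissues.

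**Figure D2:**
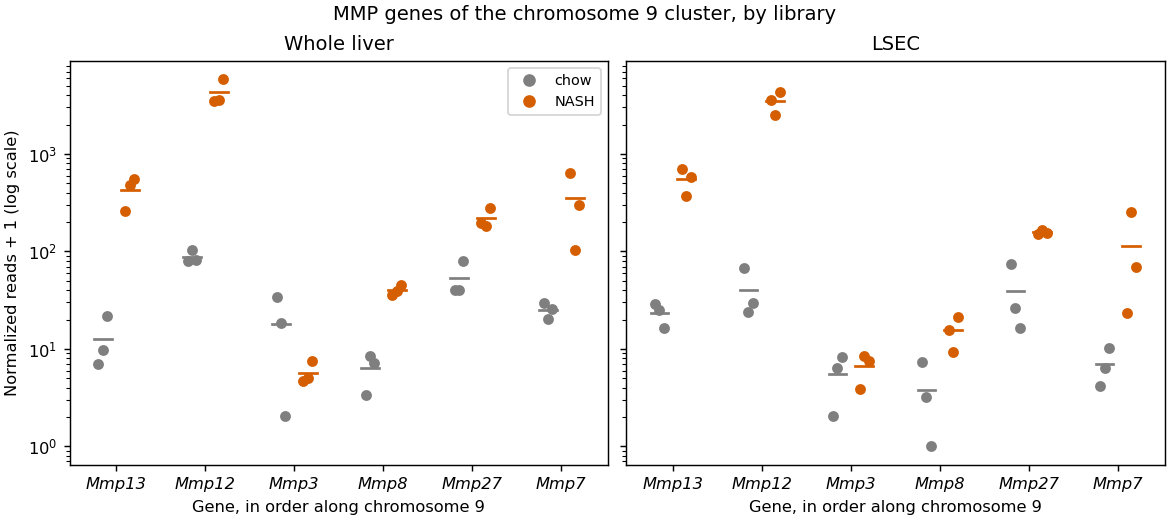
Normalized reads + 1 on a log axis for the 6 MMP genes of the chromosome 9 cluster in gene order, whole liver on the left and LSEC on the right. Each point is a library (grey chow, orange NASH) and each bar the mean of 3. The NASH points lie above the chow points for every gene but Mmp3, and the spread among NASH libraries is widest for Mmp7.

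The gelatinases cut denatured collagen and the collagen IV of basement membranes. Mmp2, on chromosome 8 at 92827291 to 92853420, rose in liver from 158, 150.0 and 205 to 1807, 1140.0 and 2004 normalized reads (log2 fold change 3.24 ± 0.21, limma, adjusted p = 5.5e-06). In LSEC it had 183, 95.7 and 176 with chow and 593, 231 and 462 with NASH. These groups did not overlap, yet the change of 1.45 ± 0.40 missed the threshold (limma, adjusted p = 0.0723); DESeq2 on the same reads gave 0.00282. Mmp9, the gelatinase of neutrophils and macrophages, had 107, 87.4 and 212 in chow liver and 83.5, 108 and 111 in NASH liver, with overlap and a 95% interval of the log2 fold change of -1.03 to 0.37. In chow LSEC it had 179.7, 16.3 and 37.9 and in NASH LSEC 16.4, 20.5 and 26.0. Chow library 1 stood alone there, and the interval of -3.06 to 0.68 was wide (limma, adjusted p = 0.386).

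Membrane-type MMPs act at the cell surface. Mmp14 (MT1-MMP), which activates pro-Mmp2 in a complex with Timp2, was the most abundant MMP transcript of LSEC per length, with 915 normalized reads per kb of exon in chow. It had 5709, 5987 and 4671 normalized reads with chow and 6959, 4811 and 6229.8 with NASH in LSEC (log2 fold change 0.13 ± 0.17, 95% interval -0.28 to 0.53). In liver it had 2470.0, 2417 and 1959.7 and 2532, 2219 and 3166 (log2 fold change 0.20 ± 0.14, 95% interval -0.11 to 0.51). Neither passed, and the groups overlapped; scaling by total reads brought the liver value to 0.62 (limma, adjusted p = 0.00829). Mmp15 (MT2-MMP) rose in both. In liver it went from 1719, 1957 and 2721 to 3284, 3158 and 3173 (log2 fold change 0.61 ± 0.15, limma, adjusted p = 0.00742). In LSEC it went from 153, 135 and 162 to 273, 897 and 665 (log2 fold change 1.86 ± 0.41, limma, adjusted p = 0.039). NASH library 2, the library with the highest cholangiocyte sum, again was the highest. In the NASH livers the cholangiocyte sums were 31355, 18317 and 35977, beside the Mmp15 values of 3284, 3158 and 3173. What cholangiocytes add to the Mmp15 values was not tested. With an LSEC library left out the adjusted p of Mmp15 was 0.0219 to 0.14 (limma), passing only without NASH library 1. Mmp17 and Mmp25, which are held in the membrane by a lipid anchor, rose in liver by log2 fold changes of 1.40 ± 0.28 and 1.88 ± 0.38 and did not pass in LSEC. Mmp24 had 0 reads in all chow livers and 1.84, 10.1 and 13.7 normalized reads with NASH. This was at least 7.77-fold higher when chow is set to a floor of 3 reads over the group (limma, adjusted p = 0.00661). Exons of BC029722 on the other strand cover 13.6% of the exon bases of Mmp24.

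Mmp19, which cuts components of the basement membrane, did not move in step between the tissues. In LSEC it rose from 49.1, 68.5 and 37.9 to 133, 129 and 151 normalized reads (log2 fold change 1.43 ± 0.28, limma, adjusted p = 0.0303), with no overlap. With a library left out the adjusted p was 0.0266 to 0.122, passing only without chow library 2. In liver it was among the most abundant MMP transcripts, at 2386, 2352 and 2225 with chow and 2254, 2957 and 1917 with NASH (log2 fold change 0.011 ± 0.14, 95% interval -0.30 to 0.33). The liver groups overlapped, and scaling by total reads gave 0.43 (limma, adjusted p = 0.015). Exons of Tmem198b and Gm47093 on the other strand cover 28.3% of its exon bases, and the liver kit does not mark strand, so their reads cannot be told apart there. Mmp23, a membrane-tethered MMP without hemopexin domain, rose in liver by 2.25 ± 0.20 and in LSEC by 1.86 ± 0.38 on the log2 scale (limma, adjusted p = 3.42e-05 and 0.0323). The LSEC call of Mmp23 was lost with any library left out (limma, adjusted p = 0.0507 to 0.0966). Mmp11, stromelysin-3, which is activated inside the cell, rose in liver from 36.8, 52.9 and 39.0 to 109, 66.4 and 162 (log2 fold change 1.30 ± 0.33, limma, adjusted p = 0.00999) and did not pass in LSEC at 0.94 ± 0.37 (adjusted p = 0.159). Mmp28, epilysin, had intervals of -1.04 to 0.59 in liver and -0.75 to 0.69 in LSEC.

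The make-up of the MMP transcripts was different between the diets in both tissues. Summed over the family, liver had 1618, 1631 and 1731 normalized reads per kb of exon with chow and 3754, 3204 and 3991 with NASH, and LSEC had 1252, 1178 and 990.4 and 2454, 2016 and 2428. NASH was above chow in every library of both tissues, also with libraries scaled to equal totals. In chow liver Mmp19, Mmp15 and Mmp14 made up 39.6%, 23.7% and 23.2% of the sum on average, and in NASH liver 18.9%, 16.4% and 12.1%. Mmp12 went from 0.669, 0.868 and 0.647% to 12.8, 15.4 and 20.1% and Mmp2 from 2.89, 2.73 and 3.51% to 14.3, 10.6 and 14.9%. LSEC from chow mice were dominated by Mmp14, at 76.5, 85.3 and 79.1%, which was 47.6, 40.0 and 43.0% with NASH. Mmp12 there went from 0.738, 0.268 and 0.400% to 20.4, 17.2 and 24.7%. A share falls when other members rise, and the level of Mmp14 itself did not pass the test. Without Mmp12 the summed MMP level was still above chow in every NASH library, at 3274, 2711 and 3188 per kb in liver and 1954, 1669 and 1828 in LSEC, against 1607, 1617 and 1719.9 and 1243, 1175 and 986 with chow.

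**Figure D3:**
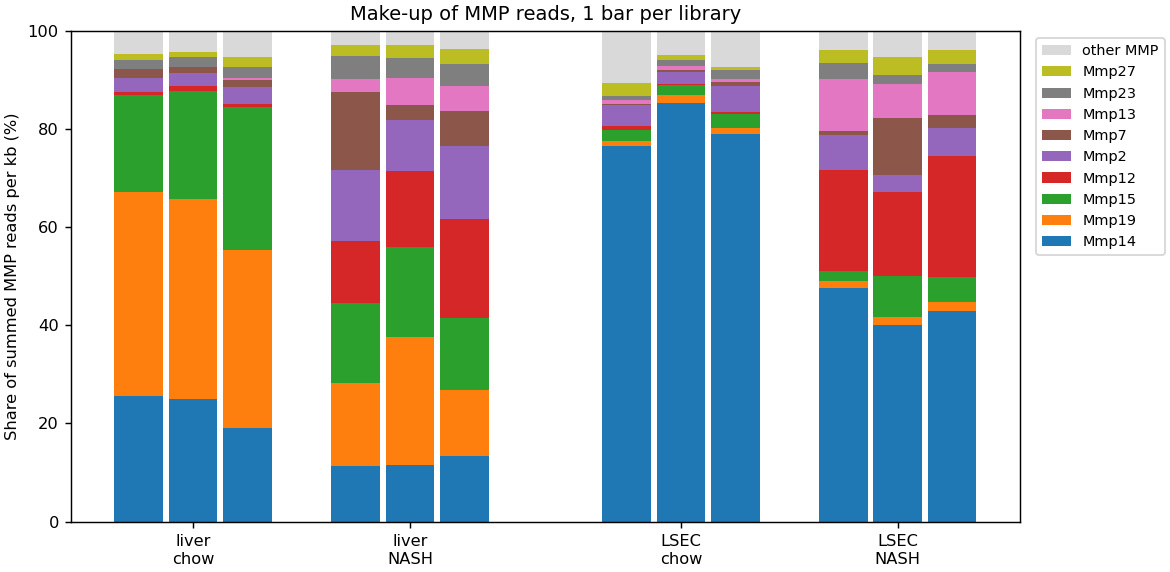
Share of each MMP gene in the summed normalized reads per kb of exon of all measured MMP genes, in percent, with 1 bar per library. In chow liver Mmp19, Mmp14 and Mmp15 fill most of each bar and in chow LSEC Mmp14 does, while Mmp12 (red) averages 16.1% in NASH liver and 20.8% in NASH LSEC.

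Of the inhibitors, Timp1 changed most. This secreted inhibitor, a weak one for membrane-type MMPs, lies on chromosome X at 20870166 to 20874735. Its liver reads were 0, 16.2 and 6.15 with chow and 503, 365 and 569 with NASH (log2 fold change 6.57 ± 0.82, limma, adjusted p = 0.000207). No NASH liver came near a chow liver. The size of the fold depended on the chow library at 0 and on the pseudocount: it was 5.41 without chow library 1, 7.76 with a pseudocount of 0.1 and 4.90 with 10. In LSEC, Timp1 rose from 15.7, 33.7 and 15.4 to 315, 208 and 187 (log2 fold change 3.45 ± 0.39, limma, adjusted p = 0.00699), a call that held with each library left out.

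Timp2, the partner of Mmp14 in the activation of pro-Mmp2, is on chromosome 11 at 118301069 to 118355740. In liver it rose from 1424, 1366 and 1601 to 4139, 3143 and 4631 (log2 fold change 1.42 ± 0.14, limma, adjusted p = 5.2e-05). In LSEC it had 3453, 2833 and 2837 with chow and 2742, 3568 and 3541 with NASH, with overlap and a 95% interval of -0.24 to 0.46. Timp3, on chromosome 10 at 86300372 to 86349506, binds to the matrix and also blocks Adam17 and several ADAMTS enzymes. It was the most abundant of all these transcripts per length in LSEC, 6801 normalized reads per kb with chow and 4586 with NASH. The LSEC libraries had 57282, 45466 and 63402 normalized reads with chow and 33854, 39024 and 39176 with NASH. Every NASH library was below every chow library, but the log2 fold change of -0.56 ± 0.18 did not pass (limma, adjusted p = 0.107); DESeq2 gave 0.0132. In liver Timp3 had 4486, 4192 and 4575 with chow and 7395, 4186 and 6572 with NASH, with NASH library 2 just below the lowest chow library and the other NASH libraries above the highest (log2 fold change 0.41 ± 0.18, limma, adjusted p = 0.0826). It passed without NASH library 2 (0.66, limma, adjusted p = 0.00112), with scaling by total reads (0.83, limma, adjusted p = 0.00553) and by DESeq2 (0.0299). Exons of Syn3 on the other strand cover 21.3% of the exon bases of Timp3. Timp4 was near 0 in all libraries, with 11.0, 2.01 and 1.61 normalized reads in the NASH livers as its highest liver values.

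Inhibitor and protease levels moved differently in the tissues. The 4 TIMP genes summed to 916, 884 and 979.5 normalized reads per kb in chow liver and 2539, 1732 and 2637 in NASH liver. In LSEC they summed to 7938, 6349 and 8531 with chow and 5216, 5943 and 5929.9 with NASH, all NASH libraries below all chow libraries, a separation that was lost with libraries scaled to equal totals, where the range was 5954 to 8189 for chow and 5442 to 6302 for NASH. Divided by the MMP sum of the same library, a ratio that no scaling changes, TIMP stood at 0.566, 0.542 and 0.566 in chow liver and 0.676, 0.541 and 0.661 in NASH liver, with overlap. The mean liver ratio with NASH was 1.12 times that with chow, and 0.83 times without division by exon length, which turns its direction. LSEC had 6.34, 5.39 and 8.61 with chow and 2.13, 2.95 and 2.44 with NASH, with no overlap. An exact two-sided permutation test of 3 against 3 libraries cannot give a p below 0.1, and none was run. The ratio counts transcripts per length and not active protein, and which genes carry it matters. Timp3 made up on average 89.3% of the LSEC TIMP sum with chow and 80.5% with NASH. Of 8 sinusoidal endothelial markers 5 fell and 1 rose in LSEC. Their sums were 523187 to 554827 with chow and 273516 to 288230 with NASH. The LSEC sums of macrophage markers given beside Mmp12 were higher with NASH. The part of these cells in the LSEC ratio and in the Timp3 level was not tested. Without Timp3, liver had 0.226, 0.226 and 0.241 with chow and 0.434, 0.380 and 0.459 with NASH, NASH then above chow. LSEC without Timp3 had 0.722, 0.650 and 0.753 with chow and 0.431, 0.571 and 0.461 with NASH, NASH still below. All these ratios keep Mmp12, on average 0.469% of the MMP sum in chow LSEC and 20.8% in NASH LSEC. Whether the LSEC groups stay apart without Mmp12 is not reported here.

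**Figure D4:**
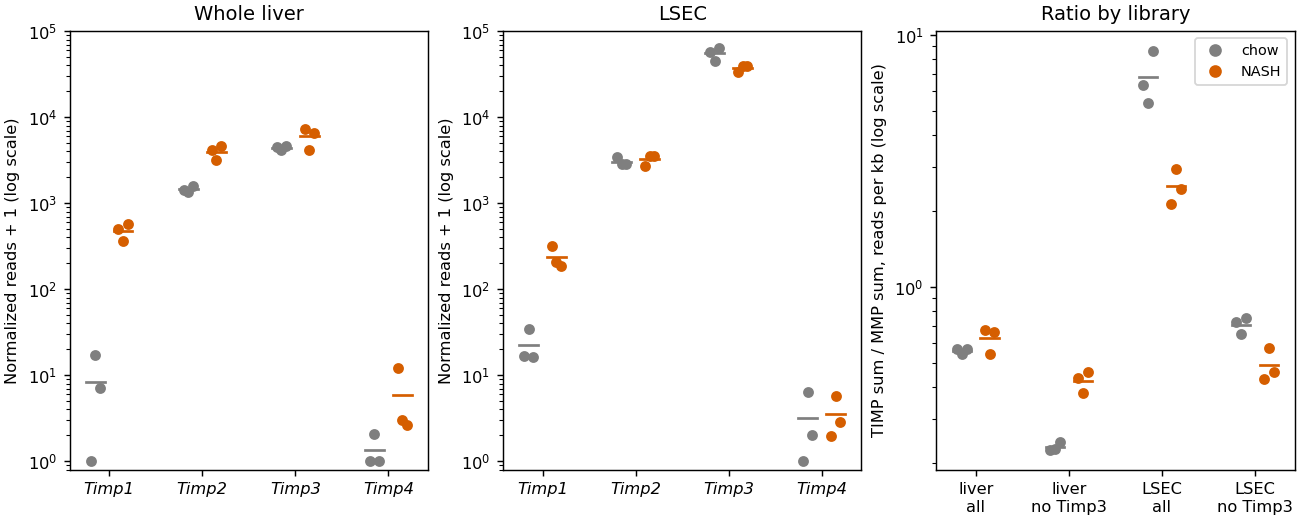
Left and middle, normalized reads + 1 on a log axis for the 4 TIMP genes in whole liver and LSEC; right, the summed TIMP over the summed MMP reads per kb of exon on a log axis, with all 4 TIMP genes and without Timp3. Points are libraries (grey chow, orange NASH) and bars means of 3. The diets do not overlap for Timp1 in both tissues, for Timp2 and, at very few reads, Timp4 in liver, and for Timp3, lower with NASH, in LSEC, and the ratio of all TIMP to MMP is lower with NASH in LSEC and overlaps in liver.

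ADAM sheddases release growth factors, cytokines and receptors from the cell surface. In liver 7 of 8 rose and none fell, where 25.0% of all genes rose, and in LSEC 1 of 8 rose, where 5.24% of all genes did. That gene was Adam8, a protease of myeloid cells on chromosome 7 at 139978932 to 139992562. It rose in liver from 21.4, 21.6 and 25.6 to 541, 488 and 904 normalized reads (log2 fold change 4.71 ± 0.25, limma, adjusted p = 2.04e-06). In LSEC it rose from 68.9, 40.3 and 14.3 to 145, 149 and 276 (log2 fold change 2.37 ± 0.57, limma, adjusted p = 0.0489). The LSEC groups did not overlap, but with a library left out the adjusted p was 0.0321 to 0.171, passing only without chow library 1, and edgeR gave 0.0587. The sums of recruited macrophage markers given beside Mmp12 were higher with NASH in both tissues, and their part was not tested.

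Adam17, which releases tumour necrosis factor, and Adam10, the sheddase of Notch receptors, had small rises in liver. Adam17 rose in liver from 912, 1034 and 1128 to 1319.9, 1546 and 1812 (log2 fold change 0.60 ± 0.13, limma, adjusted p = 0.00467). In LSEC it had 1798, 1516 and 1578 and 1981, 2048 and 2270.0, groups that did not overlap with a change of 0.37 ± 0.12 that did not pass (limma, adjusted p = 0.107). Adam10 rose in liver from 2168, 2132 and 2297 to 2612, 3368 and 3484 (log2 fold change 0.51 ± 0.11, limma, adjusted p = 0.00531) and had a 95% interval of -0.26 to 0.37 in LSEC. Adam9, the most abundant of all members per length in liver, had 5246, 5202 and 5409 with chow and 4325, 5256 and 4487 with NASH. These overlapped (log2 fold change -0.18 ± 0.092, limma, adjusted p = 0.141), scaling by total reads turned the value to 0.24 without a call (limma, adjusted p = 0.0504), and without NASH library 2 it was -0.26 and called (limma, adjusted p = 0.0315).

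Adam12, Adam15 and Adam19 rose in liver and did not pass in LSEC. Adam12, known from activated stellate cells and muscle, had 30.8, 22.7 and 19.5 in chow liver and 58.7, 64.3 and 107 in NASH liver (log2 fold change 1.59 ± 0.32, limma, adjusted p = 0.00278). In LSEC the order was opposite, 295, 359 and 236 with chow and 181, 128 and 217 with NASH, without overlap and without a call (log2 fold change -0.77 ± 0.26, limma, adjusted p = 0.114). Adam19 had 90.2, 84.2 and 76.9 in chow liver and 243, 270.4 and 318 in NASH liver (log2 fold change 1.71 ± 0.18, limma, adjusted p = 7.21e-05). Adam15 had 332, 289 and 292 and 722, 647 and 890.4 (log2 fold change 1.29 ± 0.14, limma, adjusted p = 9.84e-05). Antisense genes cover 20.6% of the exon bases of Adam15 and also overlap Adam19. The LSEC intervals were -0.15 to 0.50 for Adam15 and -0.78 to 0.65 for Adam19. Of the 8 markers of stellate cells, 6 rose in liver, with sums of 22777 to 26595 with chow and 59629 to 84113 with NASH, and their part in these values was not tested.

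ADAM proteins without a catalytic zinc site bind other proteins and cut nothing. Adam11 rose in liver from 373, 545 and 567 to 2833, 3244 and 2219 (log2 fold change 2.49 ± 0.18, limma, adjusted p = 1.18e-05), while in LSEC its change of 0.93 ± 0.47 did not pass. Adam23, a partner of secreted LGI proteins in the brain, on chromosome 1 at 63445891 to 63596276, fell in liver from 1515, 1338 and 1279.8 to 788, 1020.4 and 756 (log2 fold change -0.70 ± 0.13, limma, adjusted p = 0.00196). With libraries scaled by total reads this was -0.28 and not called (limma, adjusted p = 0.0767). Adam23 was much more strongly read in LSEC, where chow libraries had 20074, 18178 and 16715 and NASH libraries 14229.6, 11072 and 15126. The NASH libraries were again the lower ones (log2 fold change -0.45 ± 0.16, limma, adjusted p = 0.131), without a call. The 2 tables were normalized separately, so levels in liver and LSEC are set side by side only roughly. In liver, 5 of 8 markers of sinusoidal endothelium fell and 1, Lyve1, rose, with summed levels of 32688 to 35638 with chow and 20148 to 23324 with NASH; whether this bears on the liver level of Adam23 was not tested.

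ADAMTS proteoglycanases cut versican, aggrecan and related proteoglycans, and 4 of 6 rose in each tissue, against 25.0% of all genes in liver and 5.24% in LSEC. Adamts4 rose in liver from 8.30, 8.63 and 11.3 to 60.6, 77.4 and 110.2 normalized reads (log2 fold change 2.98 ± 0.32, limma, adjusted p = 8.9e-05). In LSEC it rose from 114, 86.0 and 30.7 to 1857, 320.0 and 675 (log2 fold change 3.44 ± 0.70, limma, adjusted p = 0.0336). NASH library 1 was the highest by far, and the adjusted p was 0.0424 to 0.114 with a library left out. The call was lost without chow library 3 or any NASH library. Adamts9 rose in liver from 30.8, 50.7 and 84.1 to 418, 250.3 and 395 (log2 fold change 2.74 ± 0.34, limma, adjusted p = 0.000211). In LSEC it rose from 331, 262 and 351 to 843, 1218 and 764 (log2 fold change 1.56 ± 0.21, limma, adjusted p = 0.0118), a call that held with each library left out. Adamts15 and Adamts5 rose in LSEC by 1.80 ± 0.39 and 1.23 ± 0.20 and in liver by 1.12 ± 0.19 and 1.66 ± 0.21 on the log2 scale. With an LSEC library left out their adjusted p was 0.054 to 0.122 and 0.0277 to 0.0858 (limma), the call of Adamts15 being lost in every such fit and that of Adamts5 without chow library 3 or any NASH library.

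Adamts1, the proteoglycanase with the highest level per length in both tissues, on chromosome 16 at 85793827 to 85803113, went the other way in liver. It fell there from 1171, 1061 and 2148 to 649, 877 and 900.1 (log2 fold change -0.79 ± 0.24, limma, adjusted p = 0.0228). Chow library 3 was the highest, and the groups did not overlap. Without NASH library 1 the adjusted p was 0.113 (limma), and with scaling by total reads the change was -0.38 (limma, adjusted p = 0.252). In LSEC its level varied widely within groups, 3781, 12815 and 6991 with chow and 21726, 6493 and 9955 with NASH. NASH library 1, the highest for Adamts4, was also the highest for Adamts1, and the groups overlapped (95% interval -0.59 to 1.96). The summed ADAMTS level per kb in LSEC followed it, 1302, 2816 and 1797 with chow and 5232, 1842 and 2592 with NASH. Adamts1 made up 52.5% of the ADAMTS sum in chow liver and 21.1% in NASH liver, where Adamts2 was the largest part.

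Procollagen N-propeptidases trim new fibrillar collagen so that it can form fibrils. Adamts2, the main one for type I collagen, rose in liver from 261, 318 and 315 to 1537, 1589 and 2070.4 (log2 fold change 2.53 ± 0.14, limma, adjusted p = 2.72e-06). In LSEC it rose from 229.8, 146 and 268 to 1122, 647 and 666 (log2 fold change 1.91 ± 0.30, limma, adjusted p = 0.0169, and 0.0267 to 0.0623 with a library left out, lost without NASH library 2 or NASH library 3). Col1a1 and Col3a1 rose in the same LSEC libraries by 4.08 and 3.37 on the log2 scale. They were 2 of the 3 stellate cell markers of 8 that rose there, and the other 5 did not pass, with overlapping groups. The summed level of the 8 was 14449 to 33610 with chow and 40947 to 77339 with NASH. That sum includes Col1a1 and Col3a1, whose means were 378 and 1277 with chow and 6601 and 13899 with NASH. The sum without these collagen genes is not reported here. What stellate cells add to the Adamts2 level was not tested. Adamts14 rose in liver at 1.17 ± 0.21 (limma, adjusted p = 0.00155) and did not pass in LSEC. Adamts3 did not pass in either tissue.

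Among the remaining ADAMTS genes, Adamts16 rose from near 0 in both tissues. Its liver reads were 1.19, 0 and 4.10 with chow and 35.8, 25.1 and 52.3 with NASH (log2 fold change 4.05 ± 0.60, limma, adjusted p = 0.000557). Its LSEC reads were 5.22, 5.44 and 6.14 and 18.4, 91.4 and 43.7 (log2 fold change 2.71 ± 0.58, limma, adjusted p = 0.0371). NASH library 2 was the highest in LSEC, as for Mmp7 and Mmp15, and the adjusted p was 0.0364 to 0.13 with a library left out, passing only without NASH library 1. Adamts12, which cuts cartilage oligomeric matrix protein, rose in liver from 3.56, 8.63 and 8.20 to 56.9, 121 and 114 (log2 fold change 3.66 ± 0.42, limma, adjusted p = 0.000124) and had overlapping groups in LSEC (limma, adjusted p = 0.238). Its relative Adamts7 did not pass in either tissue, with intervals of -0.37 to 0.85 and -0.76 to 0.16. Adamts10, which binds fibrillin, rose in liver from 224, 211 and 193 to 535, 503 and 748 (log2 fold change 1.48 ± 0.17, limma, adjusted p = 0.000119) and had an LSEC interval of -0.65 to 0.47. Adamts13, the plasma protease of von Willebrand factor that stellate cells make, had 275, 265 and 399.9 and 259.8, 404 and 432 in liver and 205, 60.9 and 220.1 and 494, 301 and 215 in LSEC. Its groups overlapped in both (95% interval -0.29 to 0.71 in liver and -0.081 to 2.43 in LSEC).

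The NASH effect itself was compared between the tissues for the 52 genes in both tables, as the liver minus the LSEC log2 fold change. For 10 of them (19.2%) the difference passed, against 19.5% of all 15784 genes tested, so the share of these genes was near the background. The liver effect was higher for Timp1, Timp2, Timp3, Adam8, Adam12, Adam15, Adam19, Adamts10 and Mmp2, and the LSEC effect for Mmp19. Timp2 (1.32 ± 0.20, adjusted p = 0.00044, limma), Adam12 (2.36 ± 0.41, adjusted p = 0.000933) and Adam15 (1.12 ± 0.20, adjusted p = 0.00116) had the smallest p. Of the 14 genes that rose in both tissues, Timp1 and Adam8 had a difference that passed. Among the others the 95% intervals were -1.97 to 0.01 for Mmp12, -0.51 to 1.79 for Mmp13, -2.23 to 2.09 for Mmp7 and -2.18 to 1.26 for Adamts4. Mmp14 differed by 0.073 ± 0.22 with an interval of -0.40 to 0.55. For Mmp15 (-1.25 ± 0.43) and Adamts1 (-1.48) the LSEC effect was nominally the higher one and did not pass (limma, adjusted p = 0.075 and 0.11). Leaving out 1 library gave a call to the difference of Mmp12 (without LSEC chow library 1), Mmp15 (without LSEC NASH library 1) and Adamts1 (without LSEC chow library 2), and in at least 1 such fit also of Adam9, Adam10, Adam11, Adamts9, Adamts12 and Mmp3. With all libraries kept, edgeR on recovered reads called the differences of Mmp15 and Adam11. Scaling by total reads called those of Adam10, Adam11, Adamts9 and Adamts12.

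**Figure D5:**
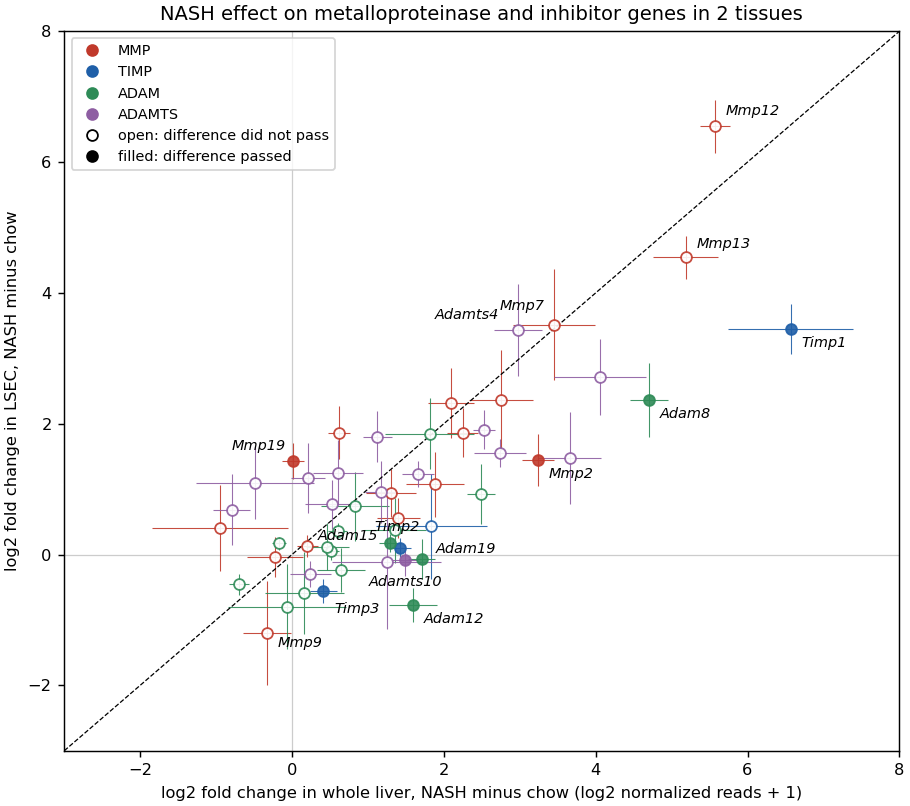
Log2 fold change of NASH over chow in LSEC (vertical) against whole liver (horizontal) for the 52 members in both tables, with standard errors as bars and the line of equal change dashed. Colours give the family, and filled points are the 10 genes whose difference passed. Mmp7 lies near the line, Mmp12 above it and Mmp13 below it as open points, Timp1, Adam8, Mmp2 and Adam12 to its lower right, and Mmp19 to its upper left.

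Of other genes of extracellular proteolysis, listed by role, 23 of 43 measured rose and 11 fell in liver, and 8 of 42 rose and 3 fell in LSEC. Of all genes, 25.0% rose and 21.0% fell in liver and 5.24% rose and 2.86% fell in LSEC. In the plasminogen system, whose protease plasmin activates pro-MMPs, 4 of 7 rose and 2 fell in liver. The plasminogen activator genes Plat and Plau and the receptor gene Plaur rose there by 3.59 ± 0.20, 2.46 ± 0.31 and 2.20 ± 0.28 on the log2 scale (limma, adjusted p = 2.78e-06, 0.000226 and 0.000217). In LSEC 2 of 7 rose, Plat at 1.48 ± 0.21 and the protease inhibitor gene Serpine2 at 2.17 ± 0.38 (limma, adjusted p = 0.0141 and 0.0229). A2m, a plasma inhibitor that traps many proteases, rose by 1.94 ± 0.35 in liver and 2.99 ± 0.40 in LSEC on the log2 scale. Its mean was low, 7.73 normalized reads in chow liver and 32.6 in NASH liver, and 29.3 and 239 in LSEC. Mug1, a mouse relative made by hepatocytes, fell by 1.00 in liver on the log2 scale (limma, adjusted p = 0.00185). Its liver mean went from 296658 to 149558. Furin, which activates Mmp14 and several ADAMs, was also lower in liver at -0.53 ± 0.099. Scaling by total reads raised the median of all liver genes by 0.402. Its effect on the falls of these other proteolysis genes, Furin and Bmp1 included, is not reported here.

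Bmp1, the protease that removes the other end of procollagen, moved in opposite directions. It fell in liver (-0.73 ± 0.088, limma, adjusted p = 0.000162) and rose in LSEC (1.86 ± 0.18, adjusted p = 0.0048); the difference between these effects is not reported here. Its enhancer gene Pcolce rose in liver at 1.88 ± 0.16 and had overlapping groups in LSEC. ADAMTS-like proteins lack the protease domain. Of 7 genes listed as ADAMTS-like or related, 4 rose and 1 fell in liver, among them Adamtsl1 and Adamtsl2 at 2.61 ± 0.30 and 2.25 ± 0.17. Adamdec1, listed with them but not an ADAMTS-like gene, was also among the liver rises, at 0.68 ± 0.19. In LSEC 1 of 7 rose, Adamtsl3 at 2.43 ± 0.41. Rhbdf2, a partner that brings Adam17 to the cell surface, rose in liver by 0.74 ± 0.11 and in LSEC by 0.80 ± 0.14, and Rhbdf1 rose in liver by 1.14 ± 0.12 and did not pass in LSEC. Tspan33, a partner of Adam10, fell in liver at -1.41 ± 0.13 and Tspan15, of the same group, rose in liver at 0.77 ± 0.20 and fell in LSEC at -0.72 ± 0.12. Of the cysteine and serine proteases, the cathepsin gene Ctss rose in both at 2.05 ± 0.14 and 1.87 ± 0.25. Htra1 rose in liver at 2.60 ± 0.24 and fell in LSEC at -1.39 ± 0.14 (limma, adjusted p = 3.8e-05 and 0.00493).

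In the authors' deposited table of liver, 34 members had an adjusted p under 0.05, 32 higher and 2 lower, and 33 of these were among the 34 called here. In the authors' deposited table of LSEC, 16 were higher and 1 lower, and they included all 15 called here. Adam5 in liver, called here, was at 0.155 in that column of the authors' deposited table. Called there but not here were Timp3 in liver, and Mmp2 (higher) and Timp3 (lower) in LSEC.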

How the data were processed

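The tools listed in the submitters' processing notes are STAR, HTSeq, FastQC, Seurat and DESeq2, with mm10 as the build and without versions. The liver kit, TruSeq RNA v2 per the labels, leaves strand unmarked; the labels name none for LSEC. In the deposited tables each library has a normalized read signal made by the authors (by its values, read counts divided by 1 factor per library), and the authors' log2 fold changes, p-values and adjusted p-values. Dividing by each library's step gave whole reads for 100% of values, within 0.01. Libraries of a group differed beyond counting noise (chi-square per degree of freedom 16.4 to 96.23). LSEC columns carry no replicate number, so LSEC libraries are numbered by position, as names only.

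Each tissue was tested with limma 3.58.1 (R 4.3.3, variance trend) on log2(normalized reads + 1), no filter, Benjamini-Hochberg adjusted over all genes; fold changes are on that scale, which understates changes of genes with few reads. Differences between tissues were tested over their standard error with Satterthwaite degrees of freedom. Alternatives were pseudocounts of 0.1 and 10, a mean of at least 10, scaling by total reads, a normal distribution for the difference between tissues, edgeR 4.0.16 and DESeq2 1.42.0 on recovered reads, a 2-fold threshold, a replicate block and each library left out. Ratio alternatives and marker sums without Spp1 were chosen after seeing the data. Levels were divided by exon bases of GENCODE M21. Steps were tested on simulated data. Members and lists were chosen with earlier results of these data known. Named genes were the Timp genes, per tissue the 12 largest rises and 6 largest falls among called members with a mean of at least 50 reads, the 5 smallest p of the difference, the most abundant member of each subfamily, textbook representatives, and up to 3 genes per pathway group. Others named (Adam5, Adam24, Adam33, Adamts3, Adamts5, Adamts14, Mmp3, Mmp8, Mmp17, Mmp24, Mmp25, the members named only by a count, an interval or a range, Tspan15 and Adamdec1 in liver, and the markers Gpnmb, Trem2, Spp1, Lyve1, Col1a1 and Col3a1) were named after their values were seen.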

Additional observations from a re-analysis of the deposited data

Results flagged for a closer look

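For 10 genes the effect of NASH differed between whole liver and LSEC by the test of the difference itself (limma per table, t distribution, Benjamini-Hochberg adjustment over 15784 genes). These were 19.2% of the 52 members tested, near the 19.5% of all genes. In liver minus LSEC log2 fold change, Timp1 was at 3.12 (adjusted p = 0.0287), Adam12 at 2.36 (0.000933), Adam8 at 2.34 (0.0259), Mmp2 at 1.79 (0.0192) and Adam19 at 1.78 (0.0047). Adamts10 was at 1.57 (0.0023), Timp2 at 1.32 (0.00044), Adam15 at 1.12 (0.00116), Timp3 at 0.97 (0.0143) and Mmp19 at -1.42 (0.0103). Over 15 alternatives the differences of Adam12, Adam15, Adam19, Adamts10 and Timp2 passed every time. The others were lost when a library was left out: Timp1 (adjusted p up to 0.103) without any 1 NASH liver or LSEC NASH library 3, Adam8 (up to 0.0903) without LSEC chow library 1 or 2 or LSEC NASH library 1 or 2, Mmp2 (up to 0.0752) without LSEC chow library 1 or 3 or LSEC NASH library 3, Mmp19 (up to 0.0562) without LSEC NASH library 3, and Timp3 (up to 0.054) without LSEC chow library 3.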

How the results depend on the processing

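The 32 rises in liver stayed within 29 and 40 under all alternatives run. The 2 liver falls became 0 with scaling by total reads and 0 with a 2-fold threshold, and 1 to 4 with a library left out (1 without NASH library 1, 4 without chow library 3). With a 2-fold threshold 3239 liver genes were called, against 7691. In LSEC, DESeq2 called 2539 genes against 1319, and 1 member lower (Timp3) against 0, while leaving out a library gave 124 (without NASH library 3) to 1171 (without chow library 1) genes and 4 to 10 members higher, against 15. Each of these fits had 1 library fewer. A normal in place of a t distribution gave 17 members whose effect differed between tissues, against 10. The liver ratio of TIMP to MMP, NASH over chow, was 1.12 per kb of exon, 0.83 without division by exon length and 1.84 without Timp3; in LSEC it was 0.369, and 0.689 without Timp3.

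In liver, where columns carry replicate numbers, a fit with the replicate number as a block called 7447 genes, with 33 members higher and 2 lower, Timp3 among the higher (limma, adjusted p = 0.0391); same-numbered libraries correlated at -0.0135, -0.0157 and 0.0981 in their deviations, not every library correlated best with its own number, and the numbers were not taken as pairs. No paired analysis was possible in LSEC because its columns carry no replicate number. For the named members, scaling by total reads, which moved the median of all genes by 0.402 in liver and 0.135 in LSEC, gave calls to Mmp14, Mmp19, Timp3, Timp4 and Adam1a in liver and Adam17 in LSEC, and took those of Adam23 and Adamts1. Depth limits the genes with few reads: 9 members in each tissue had a mean under 10.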

Other observations

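Several members were read in few molecules or did not pass, and are given here as values. In liver, Adam24, a testis gene, had 1.19, 5.40 and 1.03 normalized reads with chow and 0 in every NASH library (limma, adjusted p = 0.0729). Adam5 had 0, 0 and 1.03 with chow and 2.75, 3.02 and 4.83 with NASH, and 1.04, 0 and 1.02 and 5.80, 6.53 and 2.79 in LSEC. DESeq2 did not call it in liver (adjusted p = 0.155). Adam33, a sheddase known from mesenchymal cells, had 23.7, 24.8 and 62.6 and 107, 57.3 and 106 in liver, where the groups overlapped (limma, adjusted p = 0.0215). Adam1a had 16.6, 18.3 and 26.7 and 26.6, 33.2 and 37.0 in liver, and 99.0% of its exon bases are shared with other genes, so its value is uncertain. The remaining uncalled members, Adam2, Adam4, Adam7, Adam21, Adam22, Adam32, Adamts6, Adamts8, Adamts17 and, in LSEC, Mmp16, had group means of at most 58.1 normalized reads in either tissue.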
